A study of Mus musculus with 3 samples.

Results

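The genes described here encode the subunits of the 5 complexes of oxidative phosphorylation. They were chosen by gene symbol, from the annotation of the array's probes: symbols that begin with Ndufa, Ndufb, Ndufc, Ndufs, Ndufv, Uqcr, Cox4, Cox5, Cox6, Cox7, Cox8 or Atp5, and Sdha, Sdhb, Sdhc, Sdhd and Cyc1. The rule used no measured value. It took 77 genes, on 78 probes, while 13697 genes of the array had a single-symbol probe with a value in all 3 arrays. Of the 77, 76 had all 3 values. Ndufaf7 was left out because it had no value in the DNase II-deficient array. The prefixes also took 5 genes named Ndufaf, Ndufaf7 among them, whose products help to assemble complex I and are not part of it.

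Fetal liver of E14.5 mouse embryos was profiled on 3 single-colour CodeLink arrays, 1 for each genotype. One came from wild-type embryos, another from embryos lacking DNase II, and the last from embryos lacking both DNase II and IFN-IR, through which cells respond to type I interferon. DNase II is an acid nuclease of lysosomes, where macrophages break down DNA from the cells they engulf. The labels used here do not give strain, alleles, sex or how many embryos went on an array. As there is a single array for each genotype, no difference has a replicate check and none carries a test.

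Values are the deposited normalised intensities (linear), and 3 values for a gene are always in the order wild-type, DNase II-deficient, double-deficient. Differences are on the log2 scale after values under the array's 25th percentile were set to it. A gene entered a comparison where its intensity was above the array median, which lay between 0.958 and 0.963, in at least 1 of the 2 arrays. Dnase2a, the gene of DNase II, read 40.4, 48.6 and 39.7. The receptor genes Ifnar1 and Ifnar2 read 3.60, 4.66 and 3.17, and 0.574, 0.485 and 0.483. Dnase2a was thus not lower in the arrays labelled as lacking DNase II, so its reading does not bear out those labels. As neither the alleles nor the place of the probe is known here, it cannot decide on them. No value here checks the genotypes, so arrays are called by their labels and all directions depend on those. Markers of the tissue were present: all 8 hepatocyte markers and all 10 erythroid markers that had a probe were above the level filter, whereas 4 of 6 muscle and heart markers were under the floor in all 3 arrays.

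Oxidative phosphorylation takes place in the inner mitochondrial membrane. Complexes I (NADH dehydrogenase) and II (succinate dehydrogenase) pass electrons to ubiquinone, complex III passes them to cytochrome c, and complex IV (cytochrome c oxidase) passes them to oxygen. The proton gradient built on the way drives complex V, the ATP synthase. Most subunits are encoded in the nucleus and are measured here, and a small core is encoded by mitochondrial DNA. In the fetal liver, erythroblasts are rich in mitochondria, where heme synthesis begins and ends, and red cells lose these organelles as they mature.

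In the array labelled DNase II-deficient, most members read somewhat lower than in wild-type. Of 74 members compared, 66 were below their wild-type level, against 65.7% of all genes compared. The median log2 difference was -0.40, against -0.21 over all 8383 genes. The lower members were mostly only a little lower: 18 of 74, or 24.3%, were at least 1.5-fold lower, close to the 20.2% of all genes. By contrast 1 member, Cox4i2, was at least 1.5-fold higher, against 13.3% of all genes. At 2-fold the counts were 5 lower and 1 higher, against 6.17% and 7.67% of all genes. Uqcrq and Cox8b were too dim in both arrays to be compared.

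The all-gene median itself moved with the level of the genes. Among genes above the 90th percentile of intensity in at least 1 of the 2 arrays, a limit chosen after seeing the data, the median over all genes was -0.30 and that over the 63 members there was -0.40, and 26.0% of all genes and 23.8% of members were at least 1.5-fold lower. With cyclic loess, which removes a difference that depends on level, the members' median was -0.051 against 0.026 over all genes. The size of the general lowering thus depended on the scaling. Ndufa6, Ndufa5, Ndufs5-ps, Ndufb4, Cyc1, Uqcr11, Ndufa4 and Ndufaf2, 8 in all, were at least 1.5-fold lower under each of the 5 scalings tried.

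**Figure D1:**
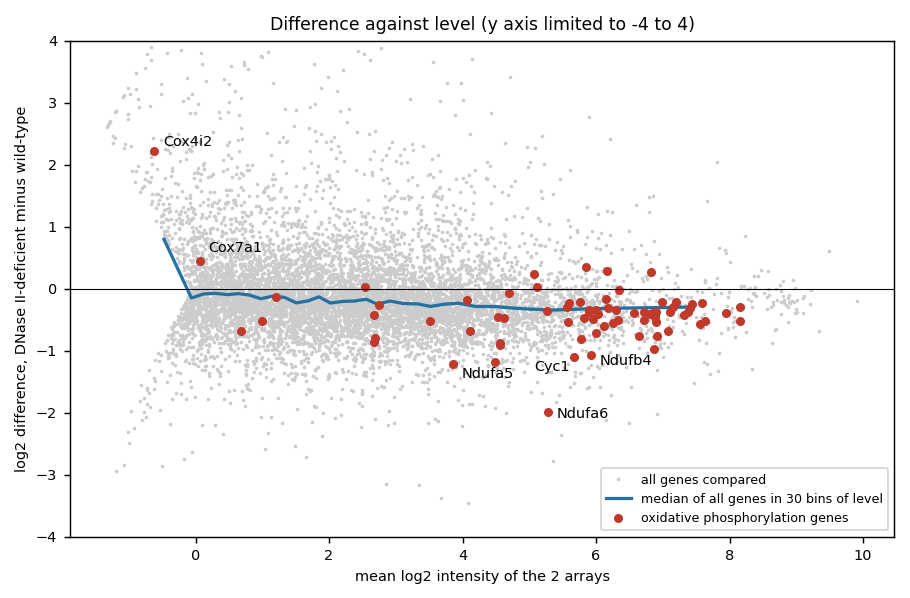
DNase II-deficient minus wild-type in log2 units, against the mean log2 intensity of both arrays, for all genes compared (grey) and oxidative phosphorylation genes (red), with the median of all genes along the level (blue line). Most red points lie at high level, near or a little under the blue line, and Ndufa6 at -1.99 and Cox4i2 at 2.21 lie farthest from it; genes beyond the axis limits are not drawn.

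Markers of red cell precursors differed more, and in the same array. Of 10 erythroid markers, 9 were lower there by at least 1.5-fold, against 20.2% of all genes. The summed intensity of the 10 was 451.5 in wild-type, 159.6 in the DNase II-deficient array and 360.2 in the double-deficient array. Granulocyte markers went the other way, with sums of 268.7, 765.5 and 615.0, and 7 of 7 compared were at least 2-fold higher, against 7.67% of all genes. The 8 hepatocyte markers ran from -1.18 to 0.60, with a median difference of 0.04. Of 7 macrophage markers compared, 3 were at least 2-fold lower, Marco, Cd5l and Clec4f, against 6.17% of all genes. C1qb alone was at least 1.5-fold higher, against 13.3% of all genes, and the 7 ranged from -3.37 to 0.83. Marco read 41.1, 3.98 and 13.5, and the summed macrophage markers 136.1, 99.8 and 122.4. Whether these shifts had a part in the members' values was not tested. In bulk tissue, fewer cells of a type and less RNA per cell cannot be told apart.

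**Figure D2:**
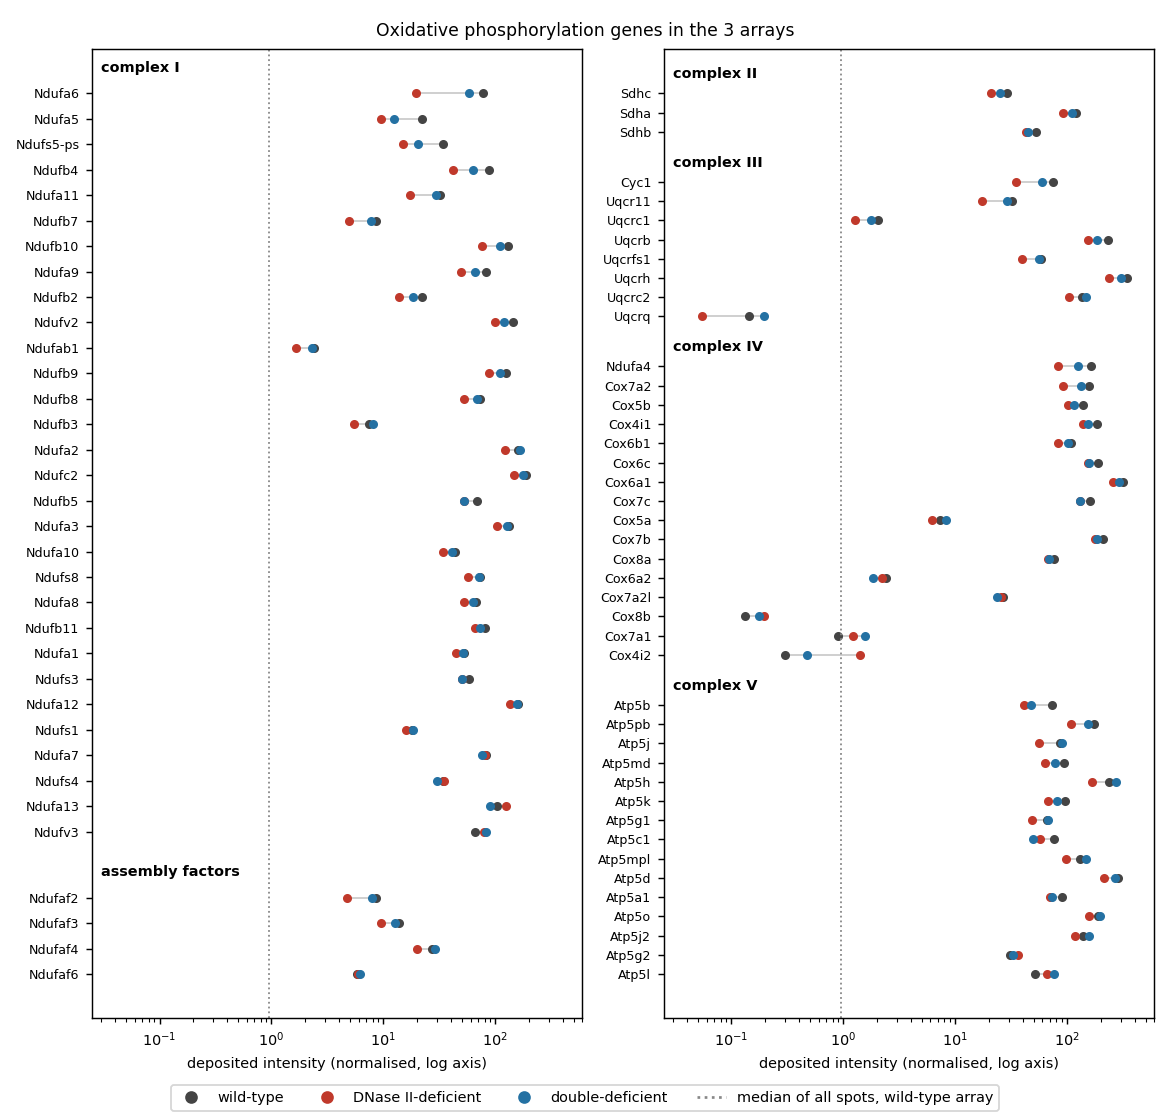
Deposited intensity of each of the 76 members in the wild-type (grey), DNase II-deficient (red) and double-deficient (blue) arrays on a log axis, 1 point per array, sorted within each complex by the log2 difference of red from grey. The dotted line marks the median of all probes in the wild-type array, and the red point is leftmost for most genes, most clearly for Ndufa6, Ndufa5, Ndufb4 and Cyc1, and rightmost for Cox4i2 and Ndufa13.

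Complex I held the lowest member of all. Its 30 members had a median log2 difference from wild-type of -0.38 in the DNase II-deficient array. There 27 were below their wild-type level, or 90%, against 65.7% of all genes. Of these, 9 were lower by at least 1.5-fold, or 30% of the 30. No member reached 1.5-fold in the higher direction, against 13.3% of all genes. The medians by complex depended on the scaling: with cyclic loess they were -0.043 for complex I, -0.031 for II, -0.22 for III and -0.088 for V. The counts by complex stand beside 20.2% of all genes at least 1.5-fold lower. Ndufa6, an accessory subunit of the LYR-motif family, read 77.2, 19.4 and 58.7. That is 3.98-fold below wild-type under the DNase II-deficient label, where the spread of the difference among 500 genes of like level was 0.39 on the log2 scale, and the double-deficient array was 3.03-fold above the DNase II-deficient one. No other member differed by as much in the lower direction.

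Ndufa5, an accessory subunit of the matrix arm, read 22.1, 9.52 and 12.3. It was 2.32-fold lower in the DNase II-deficient array, and the double-deficient array stayed 0.84 log2 units under wild-type. The probe annotated to Ndufs5-ps, a pseudogene of the subunit gene Ndufs5, read 33.8, 14.9 and 20.5, and signal of Ndufs5 itself cannot be separated from it here. Both were thus low in both mutant arrays.

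The Ndufb subunits belong to the membrane arm that pumps protons. All 9 measured were below their wild-type level in the DNase II-deficient array, against 65.7% of all genes, with a median of -0.50. At least 1.5-fold lower were 4, or 44.4%, against 20.2% of all genes. Ndufb4 read 87.8, 42.0 and 62.7, 2.09-fold lower in the DNase II-deficient array. Ndufb10 read 129.95, 76.3 and 110.3, and Ndufb7 8.51, 4.93 and 7.67. The double-deficient values of these 3 lay between the other arrays.

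The 4 core subunits with a probe, of the part conserved from bacteria that carries out the electron transfer, were each within 1.5-fold of wild-type. Ndufs1, the largest of them, read 17.9, 15.8 and 18.3, Ndufs3 58.4, 50.1 and 50.4, and Ndufs8 72.2, 56.7 and 71.3. Ndufv2 read 144.3, 99.0 and 118.9, the lowest difference of the 4 at -0.54. Their median was -0.29, and that of the 26 accessory subunits -0.40; with 4 genes against 26 and 1 array each, no order of these groups is drawn.

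A few complex I genes were not lower. Ndufa13, also known as GRIM-19 and first described as a gene of cell death induced by retinoid and interferon, read 103.1, 123.9 and 89.3. Its difference was 0.26 for DNase II-deficient minus wild-type and -0.47 for double-deficient minus DNase II-deficient, neither of 1.5-fold as deposited. With cyclic loess the first was 0.61, past 1.5-fold, and the second passed 1.5-fold with quantile normalisation, loess and centring, reaching -0.69. Ndufv3, an accessory subunit of the flavoprotein part, read 65.2, 79.4 and 82.8, and its first difference was also past 1.5-fold with loess, at 0.62. Ndufs4 read 34.3, 34.9 and 30.02. Ndufab1, the mitochondrial acyl carrier protein and also a complex I subunit, had 2 probes, which read 2.39, 1.67 and 2.31 and, on the dimmer one, 1.22, 0.484 and 0.962; both were lowest in the DNase II-deficient array.

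Of the 4 assembly factors compared, 3 were below their wild-type level, against 65.7% of all genes. Ndufaf2, a chaperone of complex I assembly, read 8.54, 4.72 and 7.90, 1.81-fold below wild-type under the DNase II-deficient label. Ndufaf3 read 13.7, 9.55 and 12.6, and Ndufaf4 27.3, 19.8 and 28.8. Ndufaf6 was level, at 5.78, 5.87 and 6.23.

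Complex II, the only complex wholly encoded in the nucleus and shared with the citric acid cycle, differed by less than 1.5-fold throughout. Sdha, the flavoprotein that oxidises succinate, read 120.0, 92.5 and 110.1. Sdhb, the iron-sulfur subunit, read 52.5, 42.9 and 44.6, and Sdhc, a membrane anchor, 29.1, 21.0 and 25.04. All 3 were lower in the DNase II-deficient array by 0.29 to 0.47 log2 units, and none by 1.5-fold. Of all genes, 65.7% were below their wild-type level there. With cyclic loess Sdhb was at 0.03, so its direction turned. Sdhd, the other anchor, was not analysed here.

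Complex III was the complex with the lowest median, -0.57 over 7 genes compared. All 7 were below their wild-type level, against 65.7% of all genes. At least 1.5-fold lower were 3, or 42.9%, against 20.2% of all genes. Cyc1, the heme-bearing cytochrome that hands electrons to cytochrome c, read 74.5, 34.7 and 60.0, 2.14-fold below wild-type under the DNase II-deficient label. Uqcr11, a small accessory subunit, read 32.3, 17.2 and 28.9. Uqcrc1, a core protein measured on a dim probe, read 2.03, 1.26 and 1.77. In each the double-deficient array lay nearer to wild-type than to the DNase II-deficient array.

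The other complex III genes were within 1.5-fold. Uqcrfs1, the Rieske iron-sulfur protein, read 58.1, 39.8 and 56.0, Uqcrb 230.0, 154.4 and 182.4, and Uqcrh, the hinge protein, 340.4, 236.8 and 303.1. Uqcrc2, the other core protein, read 135.0, 104.3 and 147.7. All 4 were lowest in the DNase II-deficient array. Uqcrq was under the floor in 2 arrays, at 0.143, 0.0545 and 0.194, and shows no order.

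Complex IV is where isoforms for particular tissues or oxygen levels are best known, and it held the only member at least 1.5-fold higher in the DNase II-deficient array. Cox4i2, the isoform of subunit IV that low oxygen induces and that is best known from lung, read 0.301 in wild-type, 1.40 in the DNase II-deficient array and 0.474 in the double-deficient array. It was 4.64-fold above wild-type under the DNase II-deficient label. The spread among the 500 dimmest genes past the level filter was 1.26 log2 units. A gene this dim by its mean passes the filter only through a large difference, so that spread does not measure noise. Cox4i2 rests on 1 dim probe that was above the array median in the DNase II-deficient array alone. With the floor at the array median the difference was 0.54, short of 1.5-fold. The general isoform Cox4i1 went from 184.9 to 138.4, with 153.1 in the double-deficient array. As Cox4i2 was under the array median in wild-type, no contrast of the isoforms is drawn.

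Other isoforms were measured as well. Cox6a1, the isoform of liver and most tissues, read 315.8, 256.4 and 292.1, and Cox6a2, that of heart and muscle, 2.41, 2.19 and 1.84. Cox7a2, the general isoform, read 156.8, 92.4 and 132.7, 1.70-fold below wild-type in the DNase II-deficient array. The muscle isoform Cox7a1 read 0.895, 1.22 and 1.57, near the array median, and the double-deficient array was 0.81 log2 units above wild-type. Cox8b, a muscle isoform, stayed near the floor at 0.131, 0.194 and 0.176, and Cox8a, the general one, read 75.4, 66.9 and 68.8.

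Ndufa4 is placed with complex IV because its product, first assigned to complex I, is now counted as a subunit of cytochrome c oxidase. It read 162.9, 83.2 and 123.9, 1.96-fold lower in the DNase II-deficient array, and was the lowest of the 15 complex IV genes compared, whose median was -0.30. Cox5a read 7.36, 6.16 and 8.28, and Cox5b 137.8, 100.8 and 115.7. Besides Ndufa4 only Cox7a2 was at least 1.5-fold lower, together 13.3% of the complex IV genes compared, against 20.2% of all genes. With cyclic loess the median of complex IV was 0.0491, so its direction was not stable to scaling.

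Complex V makes ATP in a catalytic head that is held still and driven by a ring turning in the membrane. The 15 genes compared had a median of -0.42. At least 1.5-fold lower were 3, or 20% against 20.2% of all genes, and none was higher, against 13.3%. Atp5b, the catalytic beta subunit, read 72.5, 41.3 and 47.3, 1.76-fold below wild-type under the DNase II-deficient label. Atp5c1, the gamma subunit that turns inside the head, read 75.8, 56.8 and 49.1, and Atp5a1, the alpha subunit, 88.8, 70.3 and 73.3. Atp5d, the delta subunit, read 281.9, 213.8 and 267.7. Against wild-type, the double-deficient array was at -0.62 for Atp5b, -0.63 for Atp5c1, -0.28 for Atp5a1 and -0.07 for Atp5d.

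The stalk holds the head in place. Atp5pb, subunit b, read 172.0, 107.1 and 151.7, and Atp5j, coupling factor 6, 85.6, 56.3 and 89.8. Atp5h, subunit d, read 238.1, 166.7 and 271.8, and Atp5o, the subunit that confers sensitivity to oligomycin, 188.5, 157.8 and 195.3. In Atp5j, Atp5h and Atp5o the double-deficient array was the highest of the 3. The stalk median was -0.56 in the DNase II-deficient array and 0.06 in the double-deficient array, each against wild-type, and that of the 4 head genes was -0.41 and -0.45. Members of both groups overlapped, with Atp5pb of the stalk at -0.18 and Atp5d of the head at -0.07, and no difference between the groups is drawn.

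Of the c ring, Atp5g1 read 66.6, 48.1 and 66.8 and Atp5g2, which encodes the same mature protein, 30.8, 36.4 and 32.7. The copies therefore went in opposite directions, by less than 1.5-fold each. Atp5l, subunit g, read 51.1, 65.4 and 76.5, with wild-type the lowest array. The other small membrane subunits, Atp5j2, Atp5k, Atp5md and Atp5mpl, were lower in the DNase II-deficient array by 0.22 to 0.56 log2 units.

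**Figure D3:**
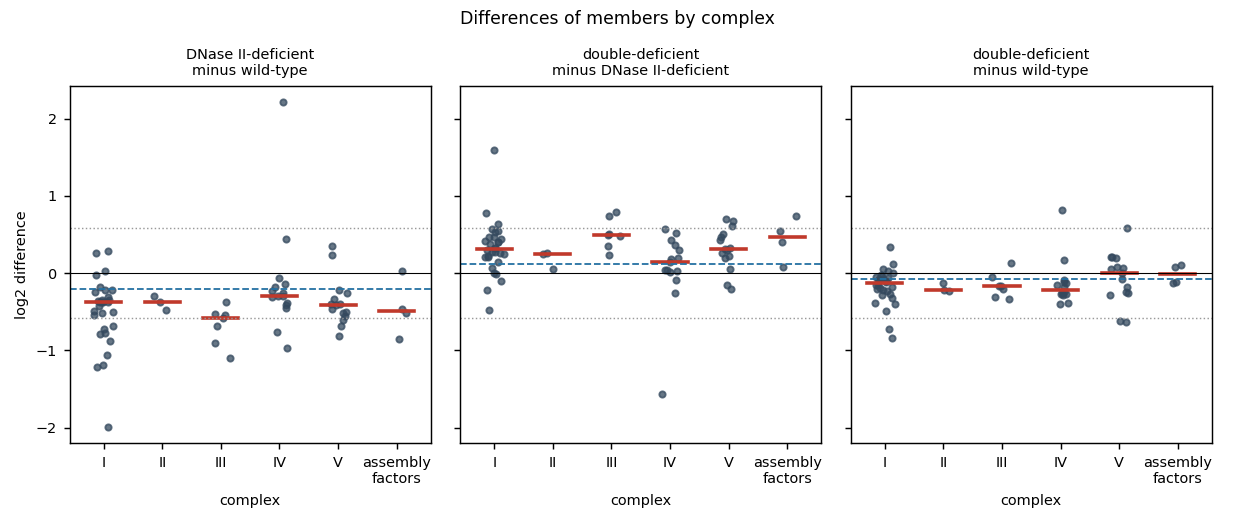
Log2 difference of each member compared (points) by complex, for the 3 comparisons, with the median of each complex (red bar), the median of all genes compared (blue dashed line) and 1.5-fold in either direction (dotted lines). In the DNase II-deficient array against wild-type the red bars lie between -0.57 and -0.30, under the all-gene median of -0.21; in the double-deficient array against the DNase II-deficient one they lie between 0.15 and 0.49, above 0.11.

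Between the double-deficient and DNase II-deficient arrays, a comparison of DNase II-deficient livers with and without the receptor for interferon, most members were higher in the double-deficient array. The median was 0.30 over 74 members, against 0.11 over 8303 genes. Of the 74, 9 were at least 1.5-fold higher, or 12.2%, against 12.5% of all genes, and 1, Cox4i2, was at least 1.5-fold lower, against 10% of all genes. At 2-fold, 1 was higher and 1 lower, against 3.11% and 4.85% of all genes. Ndufa6 was highest at 1.60, followed by Cyc1 at 0.79, Ndufa11 at 0.77, Uqcr11 at 0.75, Ndufaf2 at 0.74 and Atp5h at 0.71. Under all 5 scalings only Ndufa6 stayed at least 1.5-fold higher, and with cyclic loess the 9 became 1. Cox4i2 was lower by 1.56. This comparison shares the DNase II-deficient array with the one before, so a high or low value in that array enters both.

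Set against wild-type, the double-deficient array gave smaller differences. The median was -0.15 over 73 members, against -0.08 over 8158 genes, and 56 were below their wild-type level, or 76.7%, against 61.1% of all genes. At 1.5-fold, 4 were lower, or 5.48%, against 4.85% of all genes, and 1 was higher, against 4.89%. The lower ones were Ndufa5, Ndufs5-ps, Atp5c1 and Atp5b, and the higher one Cox7a1. None differed by 2-fold in either direction, against 0.735% of all genes lower and 2.05% higher. Ndufa5 and Ndufs5-ps were at least 1.5-fold lower, and Cox7a1 higher, under all 5 scalings; Atp5b and Atp5c1 were so as deposited only among the scalings. Atp5l was at 0.58 as deposited, just short of 1.5-fold, and past it under each of the other 4 scalings.

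Other mitochondrial genes, in lists fixed by name, lay near the members as deposited. Their medians were not recomputed under the other scalings. The all-gene median was -0.21, and -0.30 among genes above the 90th percentile of intensity. In the DNase II-deficient array against wild-type, 18 of 66 mitochondrial ribosomal proteins were at least 1.5-fold lower and none higher, with a median of -0.45. Mrpl20, of the large subunit, read 105.3 and 45.3. Citric acid cycle enzymes had a median of -0.36, with 2 of 16 at least 1.5-fold lower, Ogdh at 19.4 and 10.4 and Mdh2 at 128.7 and 81.0. Genes of coenzyme Q synthesis, which make the electron carrier between complexes, had a median of -0.65 over 5 compared, and 3 were at least 1.5-fold lower, Coq8a, Coq6 and Coq7. Protein import had a median of -0.34 with 2 of 19 lower, among them Timm13. The wider list of assembly factors, which includes the Ndufaf genes above, had a median of -0.40 with 4 of 19 lower, led by Cox20 at 36.1 and 14.2. These shares stand against the 20.2% of all genes at least 1.5-fold lower. They were 27.3% for mitochondrial ribosomal proteins, 12.5% for the citric acid cycle, 10.5% for import and 21.1% for assembly factors. Coenzyme Q synthesis was at 60%, of only 5 genes.

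Cytochrome c and the carriers had a median of -0.27. None of the 12 genes was 1.5-fold different between these arrays, against 20.2% of all genes lower and 13.3% higher. In the double-deficient array against wild-type, Vdac3 and Etfdh were at least 1.5-fold lower, at -0.67 and -0.60. That is 16.7% of the list, against 4.85% of all genes. Cycs, cytochrome c itself, read 99.9, 96.8 and 96.1. Vdac2, a pore of the outer membrane, read 40.9, 48.9 and 37.0. Cytosolic ribosomal proteins, which are likewise bright and widely expressed, had a median of -0.15 in the DNase II-deficient array against wild-type. There 7 of 67 were at least 1.5-fold lower, or 10.4%, against 20.2% of all genes.

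Regulators of mitochondrial content were mixed. Their median was -0.20 over 12 compared, against -0.21 over all genes. At least 1.5-fold lower were 2, or 16.7%, against 20.2% of all genes. These were Tfb2m, a mitochondrial transcription factor, at 4.31 and 2.35, and Polg2, of the mitochondrial DNA polymerase, at 1.77 and 1.07. Tfam, which packages mitochondrial DNA, read 33.3, 23.3 and 26.1. Nrf1, a transcription factor known to bind many respiratory gene promoters, read 1.21, 1.16 and 1.06. Esrra, encoding a nuclear receptor of the same programme, read 0.943, 1.31 and 0.916.

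Of the 6 hypoxia-responsive mitochondrial genes, which include Cox4i2, 4 were at least 1.5-fold higher in the DNase II-deficient array, against 13.3% of all genes. None was 1.5-fold lower, against 20.2%. Cox4i2 passed the level filter only through the array where it was high, and the other 3 were Bnip3, Higd1a and Egln3. Bnip3, a receptor for mitophagy, the removal of mitochondria, read 15.6, 74.7 and 19.1. Higd1a, an inner membrane protein, read 35.8, 57.9 and 41.0, and Egln3, an oxygen-sensing hydroxylase, 5.05, 9.67 and 5.88. Bnip3l, the mitophagy receptor of maturing red cells, was lower, at 83.7, 52.8 and 68.3. Over the whole mitophagy list, Bnip3 and Bnip3l included, 3 of 12 were at least 1.5-fold lower and 2 higher. These shares, 25% and 16.7%, lay near the 20.2% and 13.3% of all genes.

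Glycolytic enzymes, the other route to ATP, were higher. Of 14 compared, 9 were at least 1.5-fold higher, or 64.3%, against 13.3% of all genes. Another 2 were at least 1.5-fold lower, or 14.3%, against 20.2%. The median was 0.95. Pfkp, a phosphofructokinase, read 5.59, 39.1 and 12.0 and Aldoa, an aldolase, 8.13, 27.6 and 10.5. Pfkm and Pklr, the pyruvate kinase of liver and red cells, were lower, at 15.9 and 8.26 and at 8.39 and 4.55. In the double-deficient array against the DNase II-deficient one, the glycolytic median was -0.81. Each list is described by its own counts, and differences between lists were not tested.

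**Figure D4:**
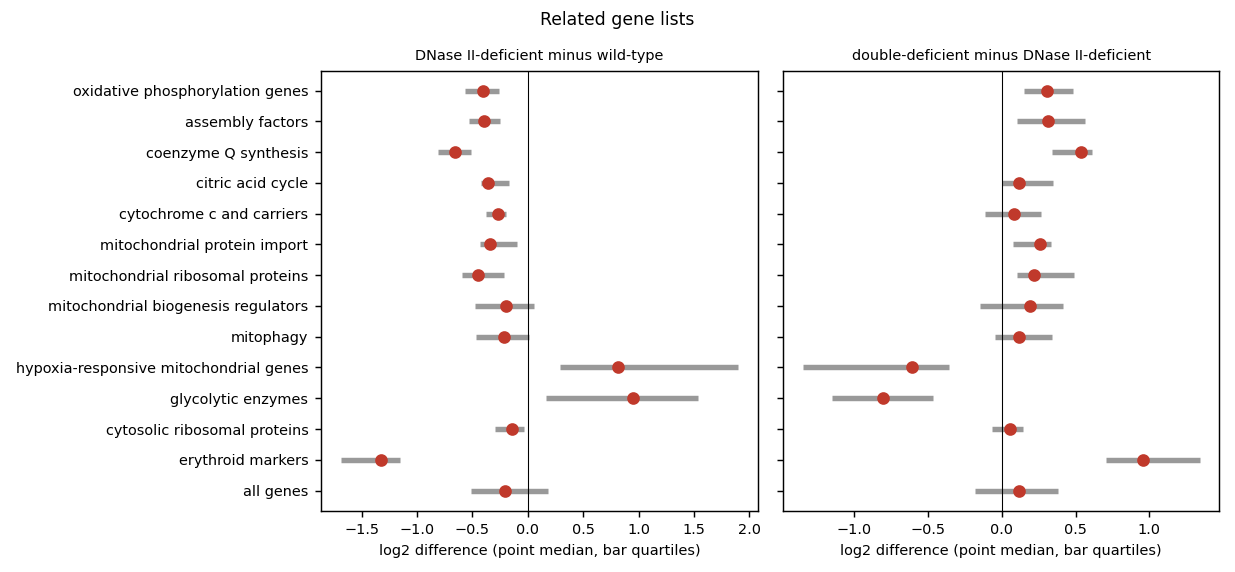
Median (red point) and quartiles (grey bar) of the log2 difference for the oxidative phosphorylation genes, 12 related gene lists and all genes, in 2 comparisons. The mitochondrial lists have medians between -0.65 and -0.20 in the DNase II-deficient array against wild-type, except the hypoxia-responsive one at 0.82, glycolytic enzymes lie at 0.95 and erythroid markers at -1.32.

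Promoters of the members were read from RefSeq windows of 300 bases, 250 before and 50 after each gene's start, on GRCm38.p6. Of the 76 members, 60 matched a window by symbol. The NRF1 motif, GCGCA then any base then GCGC, on either strand, was in 14 of 60, or 23.3%, against 10.9% of the 6814 genes compared that matched and 5.19% of all 27025 genes with a window. Its partial form GCATGCGC, which overlaps the full one where both occur, was in 18.3%, against 6.16% and 3.05%. The YY1 motif AAGATGGC was in 11.7%, against 5.25% and 3.19%, and the ETS motif CCGGAAGT in 8.33%, against 8.63% and 4.31%. The short motif ACGTG, the core bound by hypoxia-inducible factors, was in 26.7%, against 28.15% and 21.8%, and AAGGTCA, bound by estrogen-related receptors, in 6.67%, against 4.05% and 5.38%. A match is a description of letters and not of binding.

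The 14 members with the NRF1 motif had log2 differences from -1.99 to 0.24 in the DNase II-deficient array against wild-type, with a median of -0.49, and the 45 compared without it from -0.97 to 0.44, with a median of -0.39. The 250 bases before the start are printed for 3 members that were lower under all scalings and, for contrast, for Atp5g2, which was higher, with matches to the NRF1, partial NRF1, ETS and YY1 motifs in capitals and the shorter motifs left in lower case. Ndufa6 lies at chr15:82354292-82354541, minus strand, with a partial NRF1 match; its full match does not lie wholly within the printed stretch. Ndufb4 lies at chr16:37654369-37654618, minus strand, with 3 NRF1 matches and an AAGGTCA match in lower case. Uqcr11 lies at chr10:80406822-80407071, minus strand, with an ETS match and ACGTG in lower case. Its partial NRF1 match does not lie wholly within the printed stretch. Atp5g2 lies at chr15:102671048-102671297, minus strand, with an NRF1 match, overlapped by the partial form, and ACGTG on the other strand in lower case.
Ndufa6: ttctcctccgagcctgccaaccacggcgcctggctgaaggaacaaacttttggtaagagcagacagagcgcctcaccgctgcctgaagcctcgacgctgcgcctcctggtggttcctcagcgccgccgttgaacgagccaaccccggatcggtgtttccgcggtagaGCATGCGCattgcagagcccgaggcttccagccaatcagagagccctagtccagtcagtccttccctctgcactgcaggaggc
Ndufb4: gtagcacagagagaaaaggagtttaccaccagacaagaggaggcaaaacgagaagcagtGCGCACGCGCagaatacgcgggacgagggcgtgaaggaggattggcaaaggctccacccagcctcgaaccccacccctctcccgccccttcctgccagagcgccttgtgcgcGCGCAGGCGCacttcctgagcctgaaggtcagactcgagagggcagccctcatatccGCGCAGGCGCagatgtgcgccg
Uqcr11: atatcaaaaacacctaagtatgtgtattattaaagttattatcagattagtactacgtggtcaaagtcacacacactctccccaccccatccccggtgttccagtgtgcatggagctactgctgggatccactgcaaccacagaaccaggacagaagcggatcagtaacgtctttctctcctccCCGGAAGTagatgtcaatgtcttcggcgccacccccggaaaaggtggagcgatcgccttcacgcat
Atp5g2: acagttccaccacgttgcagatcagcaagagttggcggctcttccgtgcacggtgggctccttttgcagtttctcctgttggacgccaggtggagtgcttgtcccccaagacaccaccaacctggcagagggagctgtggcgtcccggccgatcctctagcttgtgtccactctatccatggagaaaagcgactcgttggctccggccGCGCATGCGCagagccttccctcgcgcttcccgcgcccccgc
Of these 4 stretches, those of Ndufb4 and Atp5g2 both hold the full NRF1 motif, at differences of -1.06 and 0.24. Each of the 4 holds a marked match, which is not so of all members. Among the others lower under all scalings, Ndufa5 holds the NRF1 motif, while Ndufa4 and Ndufaf2 hold none of the motifs sought. Cyc1 and Ndufs5-ps matched no window. Ndufa13, which was also higher, holds none of the motifs either.

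**Figure D5:**
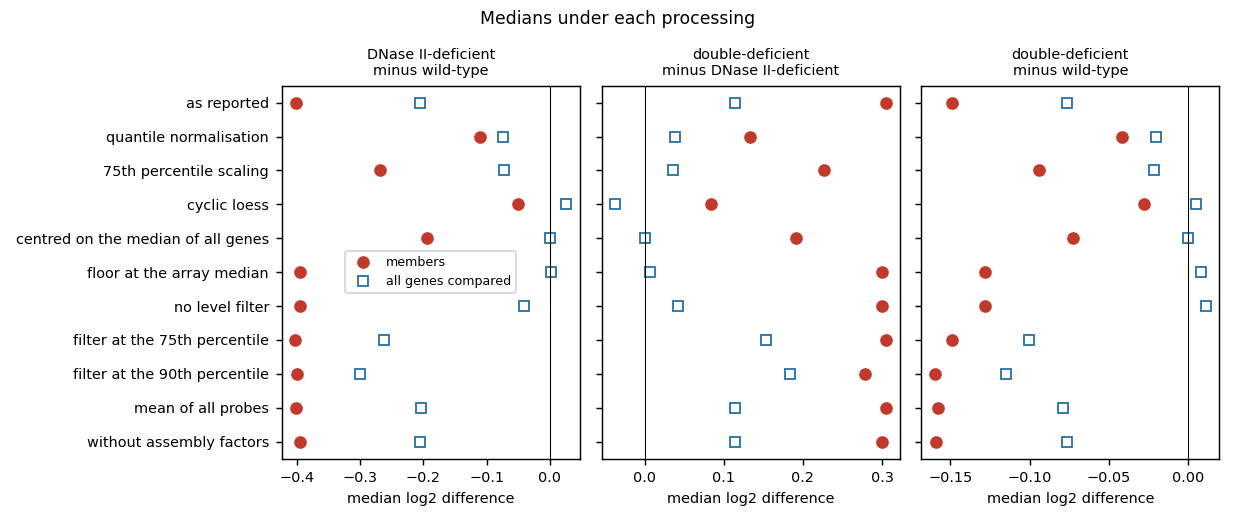
Median log2 difference of the members (red points) and of all genes compared (blue squares) as reported and under 10 other settings, for the 3 comparisons. In the DNase II-deficient array against wild-type the members' median runs from -0.40 to -0.051 and lies under the all-gene median in each setting.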

How the data were processed

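Poly(A) RNA was selected, copied into cDNA and transcribed with a biotinylated nucleotide, per the labels' protocols, and the stained arrays were read with CodeLink software. Its version, background method and filters were not stated there. Each deposited value is a linear normalised intensity of a probe on an array, with medians from 0.958 to 0.963. A shared typical level hides any difference in total RNA. Arrays have no read depth, and their number limits the precision.

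Of 20289 probes, 20164 had all 3 values. Probes were named from the platform annotation, and 15120 had a single symbol. A gene with several probes took the brightest by mean log2 level. Values under the 25th percentile were set to it and log2 transformed. Genes were counted at 1.5-fold and 2-fold, without tests. The spread given beside single genes is 1.4826 times the median absolute deviation over 500 genes of like level that passed the level filter. It is not a replicate error. The genes named were, per complex, the 3 lowest and 2 highest for DNase II-deficient minus wild-type, the brightest, and fixed subunits and isoforms, plus further members and the lowest or highest genes of each list; some were added after their values were seen. Members and lists were chosen with earlier results of these data known. Alternatives were 4 other scalings, another floor, other filters, the mean of probes and the members without assembly factors. The steps were tested on simulated data with large differences planted in bright genes and less noise than the spread seen here. That does not check small differences or dim genes. Python 3.11.15, R 4.3.3 and limma 3.58.1 (cyclic loess) were used.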

Additional observations from a re-analysis of the deposited data

How the results depend on the processing

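No paired analysis was possible because each genotype has 1 array. For the DNase II-deficient array against wild-type, the members' median was -0.40 as reported, and -0.11, -0.27, -0.051 and -0.19 with quantile normalisation, 75th percentile scaling, cyclic loess and centring on all genes. At 1.5-fold, 18 members were lower and 1 higher as reported. The counts were 11 and 2 with quantile normalisation, 14 and 1 with 75th percentile scaling, 8 and 4 with loess, and 10 and 2 with centring. None (0) reached 1.5-fold higher with a floor set at the array median or with filters at the 75th or 90th percentile, which leave Cox4i2 out or bound it. For all genes, the share of higher among 1.5-fold calls was 39.6% as reported, and 52.4%, 53.2%, 63.1% and 61.1% under those 4 scalings. For the double-deficient array against the DNase II-deficient one, the median of 0.30 was 0.13, 0.084 and 0.19 with quantile, loess and centring. Lower and higher members were 1 and 9 as reported, 2 and 5 with quantile and 1 and 7 with 75th percentile scaling. With loess there were 2 and 1, and with centring 2 and 6. No member (0) was lower with the floor at the median or filters at the 75th or 90th percentile. For the double-deficient array against wild-type, the median of -0.15 was -0.042 with quantile and -0.028 with loess. Lower and higher members were 4 and 1 as reported and 2 and 2 with all 4 scalings. Without a level filter 2 were higher, and with filters at the 75th or 90th percentile 0 were. The 90th percentile was chosen after seeing the data. For complex IV the median reversed with loess, to 0.0491 in the first comparison and -0.0765 in the second, and with quantile normalisation, to -0.011 in the second. The cause was not tested. Of the values for single named genes and complexes under these alternatives, 1261 stayed within the spread or limit set, 44 moved and 3 reversed, those of complex IV. For the single genes counted, the filters, the mean of probes and leaving out assembly factors could not change a value. Many of the 1261 were thus fixed in advance. A single gene counted as reversed only if its reported difference was at least 1.5-fold. Smaller differences that changed sign, such as that of Sdhb from -0.29 to 0.03 with loess, are not among the 3. Dim genes such as Cox4i2, Cox7a1, Cox8b and Uqcrq are limited by signal over background.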
